A study of Rattus norvegicus with 3 samples.

Results

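Aldehyde dehydrogenases are the enzymes that oxidise aldehydes to carboxylic acids with NAD or NADP as the acceptor. Members of the family make retinoic acid from retinal, clear acetaldehyde and lipid aldehydes, and carry out single steps of proline, lysine, carnitine and folate metabolism. The proximal tubule is a main site of amino acid breakdown in the kidney, and several of these enzymes are known from its mitochondria and cytosol. The 10 genes described here were chosen by name, as every probe set annotated to exactly 1 gene symbol where that symbol was Aldh1a1, Aldh1a2, Aldh1a3, Aldh1l1, Aldh2, Aldh3a1, Aldh3a2, Aldh4a1, Aldh7a1 or Aldh9a1. Each had 1 probe set, so the family stands for 10 of 20826 such probe sets and 10 of 14217 named genes. None of the 10 probe sets carried an identifier suffix for shared or similar transcripts.

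The rats were Sprague-Dawley males, 7 to 8 weeks old, and their kidney tubules were taken in 3 preparations that form 1 group without a control group. After 250 units of heparin, perfusion with collagenase at 2 mg/ml and 20 min of digestion, tubules were taken from the cortex on 42.5% Percoll, and each preparation was hybridised to 1 Affymetrix rat array. The labels do not say whether the preparations came from different animals or whether animals were pooled, so an SD measures only the spread between these 3 samples. The labels give no second condition, so levels are described and no difference between conditions was tested.

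Signals are linear probe-set intensities, given as mean ± SD over arrays 1, 2 and 3 (n = 3). The median of all probe sets other than controls was 37.1, 37.4 and 34.9 on the 3 arrays, and the 75th percentile was 181, 167 and 167. Probe sets differ in affinity, so a signal was set against these lines and against the same probe set on the other arrays, and the order of signals between genes was not read as an order of abundance. All 8 proximal tubule markers, among them Lrp2 (8550 ± 570), Slc34a1 (9616 ± 380) and Hnf4a (5488 ± 364), lay above the median on all 3 arrays. Of the markers of other cells, all 4 of the thick ascending limb, all 3 of the endothelium and 2 of 3 of the distal convoluted tubule did so too. In each of the other 9 cell type lists 0 or 1 marker did, with 0 of 4 for hepatocytes and 1 of 3 for podocytes. In bulk RNA, fewer cells of a type and less RNA per cell cannot be told apart.

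Most of the 10 members gave strong signals in the tubules, and a minority was near or below the middle of the array. Aldh1a1, Aldh1l1, Aldh2, Aldh3a2, Aldh4a1, Aldh7a1 and Aldh9a1 lay above the 75th percentile on all 3 arrays, with signals from 590.1 to 6619. Aldh1a2 lay just above the median on each array, and Aldh1a3 and Aldh3a1 lay below it on each array. The count above the median on all 3 arrays was therefore 8 of 10 members, beside 61.0% of all named genes and 55.5% of the 9692 named genes that, like the members, had 1 probe set. The count above the 75th percentile was 7 of 10, beside 36.4% of named genes. The median percentile of the 10 members among named genes was 95.5, 95.7 and 95.98 on the 3 arrays, beside 50 for all named genes. For the other 7 measured Aldh genes it was 44.6, 50.1 and 44.2, and 2 of those 7 lay above the 75th percentile on all 3 arrays. The members, and with them the split from the other Aldh genes, were chosen with earlier results of these data known. These counts describe a short list of chosen genes and were not tested.

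**Figure D1:**
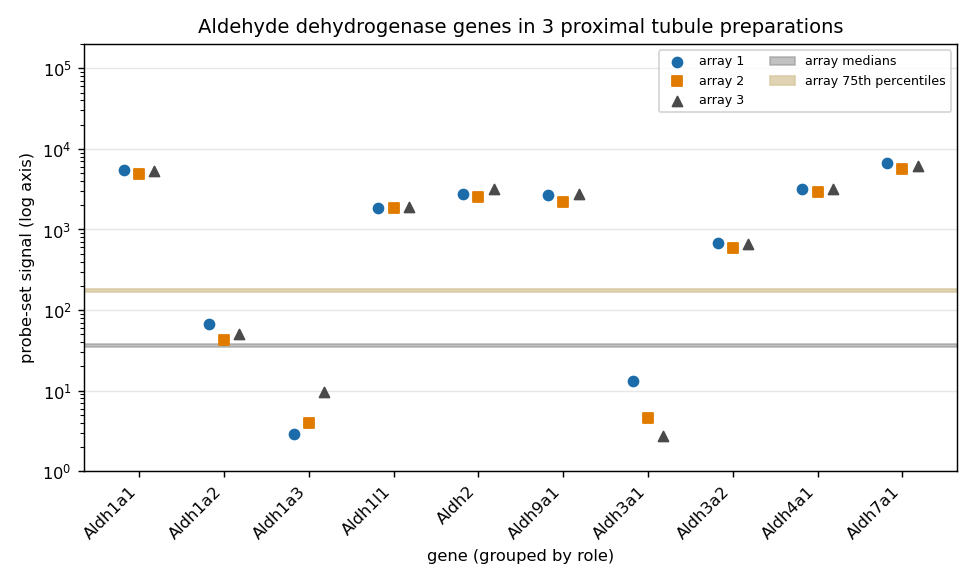
Probe-set signal on a log axis of the 10 aldehyde dehydrogenase genes on arrays 1, 2 and 3, with the range of the array medians (grey) and array 75th percentiles (tan). For 7 genes all points lie above the upper band, Aldh1a2 lies just above the lower band, and Aldh1a3 and Aldh3a1 lie below it.

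The first group of members is formed by the retinal dehydrogenases, cytosolic enzymes that turn retinal into retinoic acid, the ligand of the retinoic acid receptors. Aldh1a1 gave 5469, 4901 and 5348 on arrays 1, 2 and 3 (5239 ± 299), which is 147, 131 and 153 times the array median. Aldh1a2, the main retinoic acid producing enzyme of the embryo, gave 66.5, 42.5 and 50.0 (53.0 ± 12.3). Its ratio to the array median was 1.79, 1.14 and 1.43, so it was the member closest to that line. Aldh1a3, which is known from sensory and other epithelia, gave 2.86, 4.02 and 9.54 (5.47 ± 3.57), below the 25th percentile of the array on arrays 1 and 2 and just above it on array 3. The 3 paralogs thus covered the strongly detected, the borderline and the low part of the family's signals.

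Because these 3 paralogs catalyse the same reaction and differed in their place relative to the array lines, the 250 bases before their annotated starts are shown. They are read 5′ to 3′ from the RefSeq promoter table of the GRCr8 assembly, which held 8 of the 10 members (not Aldh2 and Aldh3a1). The windows are chr1:227537370-227537619 on the plus strand for Aldh1a1, chr8:80758391-80758640 on the plus strand for Aldh1a2, and chr1:129427644-129427893 on the minus strand for Aldh1a3. Capitals mark matches, on either strand, to the CCAAT box (CCAAT), the GC box (GGGCGG) and the octamer core (TGCAAAT).
Aldh1a1: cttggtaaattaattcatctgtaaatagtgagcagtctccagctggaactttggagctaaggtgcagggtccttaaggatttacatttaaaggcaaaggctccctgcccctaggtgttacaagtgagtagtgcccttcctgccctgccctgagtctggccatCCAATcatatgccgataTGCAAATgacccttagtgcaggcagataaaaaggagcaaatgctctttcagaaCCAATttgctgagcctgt
Aldh1a2: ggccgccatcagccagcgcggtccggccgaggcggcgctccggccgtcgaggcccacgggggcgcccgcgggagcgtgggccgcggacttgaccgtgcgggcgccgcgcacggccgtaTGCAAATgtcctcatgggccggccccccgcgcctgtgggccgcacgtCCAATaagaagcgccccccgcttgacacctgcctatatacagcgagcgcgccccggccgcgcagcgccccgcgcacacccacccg
Aldh1a3: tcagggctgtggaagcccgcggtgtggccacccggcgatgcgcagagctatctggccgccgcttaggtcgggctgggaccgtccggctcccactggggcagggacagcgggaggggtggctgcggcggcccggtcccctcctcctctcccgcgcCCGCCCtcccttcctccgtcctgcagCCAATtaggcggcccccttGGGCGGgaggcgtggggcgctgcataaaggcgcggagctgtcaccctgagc

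The Aldh1a1 window was 46.4% G and C with 1 CpG, whereas the Aldh1a2 and Aldh1a3 windows were 77.2% with 41 CpGs and 73.6% with 24 CpGs. The median over all 33469 windows of this length was 51.2%, with 5 CpGs. The other 5 member windows, of Aldh1l1, Aldh3a2, Aldh4a1, Aldh7a1 and Aldh9a1, ranged from 56.0% to 70.0%, so the Aldh1a1 window was the one member window below that median. CCAAT was present in 7 of the 8 member windows, all but that of Aldh4a1, beside 34.0% of all windows. GGGCGG was present in 5 of 8 (30.5% of all) and TATAAA only in the window of Aldh4a1 (12.9% of all). The HNF1 half-site GTTAAT (6.45% of all) and the nuclear receptor half-site AGGTCA (14.1% of all) matched no member window, and the xenobiotic response core TNGCGTG (4.09% of all) matched that of Aldh3a2. The octamer core was added to the search after the sequences had been seen, and it matched the windows of Aldh1a1, 71 bases before the start, and Aldh1a2, 132 bases before the start (3.54% of all). Motifs were counted separately where they overlap. A match of these letters is a description and not a binding site.

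Aldh1l1 and Aldh2 represent folate and acetaldehyde metabolism. Aldh1l1, the cytosolic formyltetrahydrofolate dehydrogenase, gave 1852, 1869 and 1874 on the 3 arrays (1865 ± 11.3). Its coefficient of variation of 0.607% was on the signals as deposited. Its range was 0.080 on the log2(signal + 16) scale, on which all array differences are given after centring the array medians, and 0.21 with quantile normalization. Aldh2, the mitochondrial enzyme that clears acetaldehyde and lipid peroxidation products, gave 2718, 2564 and 3178 (2820 ± 320). Array 3 stood above the other arrays for Aldh2, by 0.29 over array 1 and 0.38 over array 2 on that scale. This was the widest range among the 7 members above the 75th percentile, also under the other scalings and pseudocounts run.

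Aldh9a1, Aldh4a1 and Aldh7a1 work in carnitine synthesis and amino acid breakdown. Aldh9a1, which oxidises trimethylaminobutyraldehyde to the precursor of carnitine, gave 2683, 2217 and 2736 on arrays 1, 2 and 3 (2545 ± 286). Array 2 was the low array for Aldh9a1, 0.28 below array 1 and 0.37 below array 3, with a range of 0.22 under quantile normalization. Aldh4a1, the mitochondrial pyrroline-5-carboxylate dehydrogenase that ends proline and hydroxyproline breakdown in glutamate and its hydroxy analog, gave 3144, 2904 and 3155 (3068 ± 142). Aldh7a1, also called antiquitin, the aminoadipic semialdehyde dehydrogenase of lysine breakdown, gave 6619, 5599 and 6142 (6120.05 ± 510.3). For Aldh4a1 and Aldh7a1 the 3 arrays spanned 0.19 and 0.25 log2 units, and 0.13 and 0.054 with quantile normalization.

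Aldh3a2 and Aldh3a1 are next to each other on chromosome 10 in the GRCr8 annotation, with no other protein-coding gene between them, and they lay on opposite sides of the array lines. Aldh3a2, the microsomal fatty aldehyde dehydrogenase, gave 678, 590.1 and 665 (644 ± 47.2). Aldh3a1, the cytosolic enzyme abundant in cornea and inducible by aryl hydrocarbon receptor ligands in rat liver, gave 13.3, 4.60 and 2.71 (6.86 ± 5.63). The highest of the 3 Aldh3a1 signals, on array 1, was 0.357 of the median of that array. No detection calls were used here, so a low signal is not a statement that the transcript was absent.

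The spread of the members between preparations was close to that of all genes. Of the 10 members, 0 ranged by 2-fold or more over the 3 arrays, beside 4.46% of all named genes and 2.23% of the 9156 named genes whose mean signal lay above the overall median, so for 10 genes this count is near the background. The pseudocount of 16 compresses low signals. With a pseudocount of 1 the count was 2, Aldh1a3 with a range of 1.54 and Aldh3a1 with 1.85 log2 units, beside 23.0% of all named genes and 57.5% of the 5061 named genes at or below the overall median. The SD over arrays on the log2 scale had a median of 0.16 for the members and 0.18 for all named genes. Without array 2 it was 0.060 for the members and 0.14 for all named genes. Among the 7 members above the 75th percentile it ran from 0.04 to 0.20 with a median of 0.13, beside 0.14 for the 5172 named genes above that line on all 3 arrays. Aldh1a2, Aldh1a3 and Aldh3a1 had ranges of 0.50, 0.50 and 0.58. These are the members not above the 75th percentile, and over all genes the median SD was also larger at or below the overall median (0.25) than above it (0.16).

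Most members with strong signals were lowest on array 2, as were most other genes of that signal range. Of the 7 members above the 75th percentile, 6 were lowest on array 2 (Aldh1a1, Aldh2, Aldh3a2, Aldh4a1, Aldh7a1 and Aldh9a1), beside 62.4% of the 5172 named genes above that line. The median deviation on array 2 from a gene's own mean was -0.15 for these 7 members and -0.088 for the 5172 genes. Without centring the count was 6 of 7, beside 50.5% of the genes, and with 75th percentiles centred it was 5 of 7, beside 40.5%. With quantile normalization it was 3 of 7, beside 29.7%, and the median deviation of the 7 was -0.033. Over all 10 members the counts lowest on array 2 were 7 with medians centred, 7 without centring, 6 with 75th percentiles centred and 4 with quantile normalization. The 9156 named genes with a mean signal above the overall median gave 52.1%, 42.8%, 34.4% and 30.8% in the same order of settings. Aldh1a3 and Aldh3a1 lie outside that set. On array 3, 6 of the same 7 members were highest, beside 34.1% of the 5172 genes. Without centring, with 75th percentiles centred and with quantile normalization the count was 4, 7 and 5 of 7, beside 22.9%, 37.3% and 35.0%. Aldh2, Aldh4a1 and Aldh9a1, and with them Aldh1a3, were highest on array 3 under each of these scalings. These differences between single preparations were not tested.

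**Figure D2:**
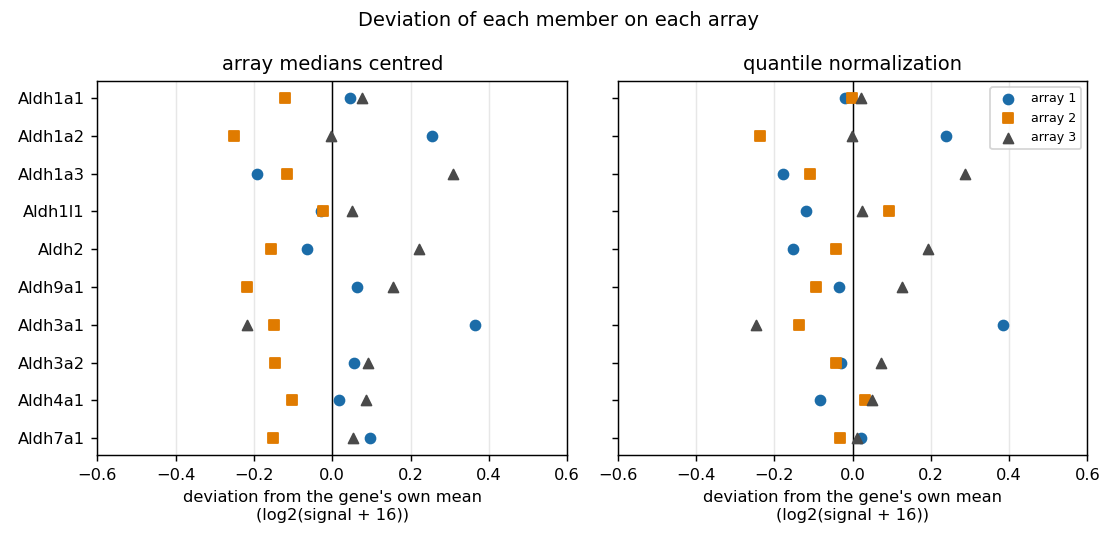
Deviation of each member on arrays 1, 2 and 3 from its own mean, in log2(signal + 16) units, with array medians centred (left) and with quantile normalization (right). On the left, array 2 is the lowest point for 7 of 10 genes, beside 52.1% of the 9156 named genes above the overall median signal. On the right array 2 is the lowest for 4 of 10, beside 30.8%, and Aldh2 and Aldh9a1 remain highest on array 3 in both panels.

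Marker levels of other cell types also differed between the arrays, and their part in the values of the members was not tested. With 3 arrays, a shared order of arrays is no measure of likeness and is given as a description only. The summed deposited signal of all named genes was 6227571, 5534901 and 5765011 on arrays 1, 2 and 3, and those of the 8 proximal tubule markers (50856, 46616 and 48631) and the 4 thick ascending limb markers (12377, 10294 and 10893) had the same order. Aldh1a2 was highest on array 1 and lowest on array 2. The summed red blood cell markers (185, 90.0 and 102) and macrophage markers (106, 75.4 and 101) had that order too. So did the summed principal cell markers (987, 852 and 945), the proximal tubule and thick ascending limb sums, and the sum over all named genes. Of the single markers of the red blood cell, macrophage and principal cell lists, only Aqp3 had it. Hbb was lowest on array 3 (173, 83.2 and 74.4) and Csf1r was highest on array 3 (51.0, 39.8 and 58.4). The summed podocyte markers (87.5, 138 and 131) and fibroblast markers (77.6, 97.2 and 155) were lowest on array 1. Within these lists Podxl, Wt1, Col3a1 and Lum were lowest there. Nphs1 (12.9, 4.78 and 10.1), Col1a1 (16.2, 15.4 and 30.3) and Pdgfrb (17.5, 11.1 and 21.2) were lowest on array 2. Aldh1a3, low on every array (2.86, 4.02 and 9.54), was highest on array 3 and lowest on array 1. The summed endothelial (461, 595 and 875), fibroblast and intercalated cell markers (127, 153 and 206) had its order of arrays. Each measured endothelial marker had that order. Of the fibroblast markers only Col3a1 had it, and the intercalated cell marker Foxi1 was lowest on array 2.

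The other 7 measured Aldh genes are given beside the members. Aldh6a1, the methylmalonate semialdehyde dehydrogenase of valine breakdown, gave 5699 ± 727 and 2159 ± 297 with its 2 probe sets. Aldh16a1, a member whose mammalian form lacks the catalytic cysteine, gave 822 ± 66.2. Aldh18a1, which makes pyrroline-5-carboxylate for proline synthesis and so runs opposite to Aldh4a1, gave 77.0 ± 16.2. These 3 genes and Aldh5a1 lay above the median on all 3 arrays, 4 of 7 other Aldh genes, against the background of 61.0%. Aldh5a1, the succinic semialdehyde dehydrogenase, had probe sets that disagreed, with means of 149 ± 27.7, 48.5 ± 10.8 and 13.8 ± 6.28. Aldh3b1 gave 28.6 ± 7.65.

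The mitochondrial relatives of members with strong signals were both low. Aldh1l2, the mitochondrial counterpart of Aldh1l1, gave 3.25, 6.47 and 4.17 on arrays 1, 2 and 3. Aldh1b1, a mitochondrial relative of Aldh2, gave 4.57, 5.46 and 19.3. Neither reached the array median on any array, whereas Aldh1l1 was at least 49.9 times that median on every array and Aldh2 at least 68.5 times. One further probe set was annotated jointly to Aldh3b2 and Aldh3b3 and was left out.

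**Figure D3:**
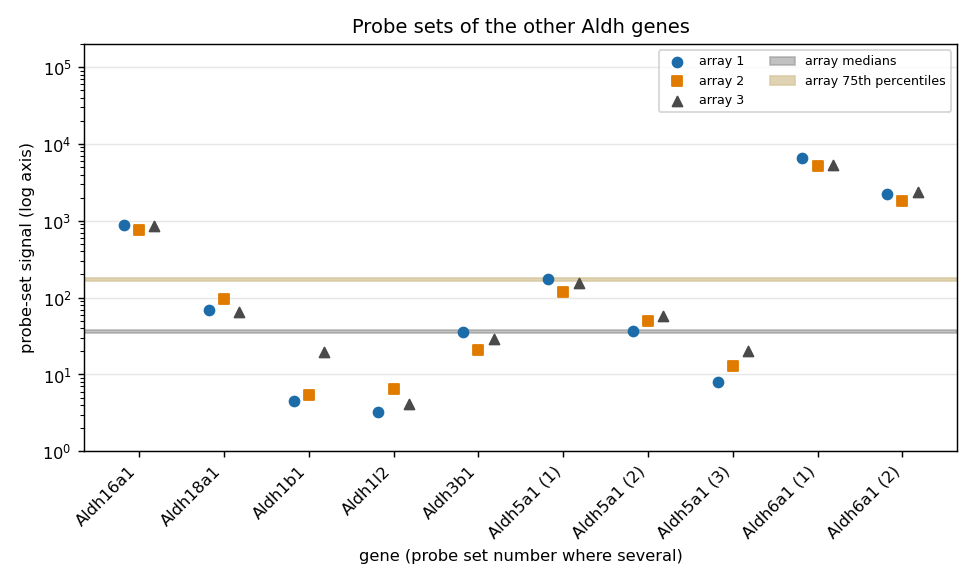
Probe-set signal on a log axis of the 10 probe sets of 7 other Aldh genes on arrays 1, 2 and 3, with the array medians (grey) and 75th percentiles (tan). Aldh6a1 and Aldh16a1 lie above the upper band, the 3 probe sets of Aldh5a1 lie at different levels, and Aldh1b1, Aldh1l2 and Aldh3b1 lie below the medians.

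The pathways around the members, before and after their steps, were then described by lists of their genes, with the same background of 61.0%. These lists were chosen with earlier results of these data known, so their counts are descriptions and were not tested against that share. For Aldh4a1, all 6 measured genes of proline and hydroxyproline metabolism lay above the median on all 3 arrays. They included Glud1 (4437 ± 389), glutamate dehydrogenase, Got2 (4238 ± 321), the mitochondrial aspartate aminotransferase, Hoga1 (3549 ± 209), the last enzyme of hydroxyproline breakdown, and Prodh (304 ± 35.9), proline dehydrogenase. For Aldh7a1, all 5 measured genes of lysine breakdown did so. Among these, Aass, the bifunctional enzyme that releases the semialdehyde substrate of Aldh7a1, gave 6018 ± 581, Gcdh of the later steps gave 4015 ± 408, Crym gave 3384 ± 347 and Aadat gave 1170 ± 230.02.

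For Aldh9a1, 2 of 3 genes of carnitine synthesis lay above the line. Tmlhe, which starts the pathway, gave 1214, 917 and 1158 (1096 ± 157) and Shmt1, a serine hydroxymethyltransferase gene, gave 1516 ± 73.1. Bbox1, the enzyme of the last step after Aldh9a1, gave 25.1, 18.6 and 14.5 (19.4 ± 5.37), below the median on every array. Tmlhe and Aldh9a1 thus had signals above the 75th percentile of every array, and Bbox1 did not reach the median of any. In the choline to glycine list all 6 genes lay above the line, among them Bhmt2 (5873 ± 516), Dmgdh (1084 ± 176), the choline dehydrogenase gene Chdh (866 ± 220.4) and Bhmt (175 ± 31.3).

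For Aldh1l1, 8 of 11 measured folate genes lay above the line. The folate receptor gene Folr1 gave 4394 ± 518, the lysosomal hydrolase gene Ggh 2680.0 ± 399, the trifunctional enzyme gene Mthfd1 2503 ± 115 and its mitochondrial relative Mthfd1l 2.73 ± 2.59. In this pair, as for Aldh1l1 and Aldh1l2, the mitochondrial gene was below the array median on all 3 arrays. The mitochondrial Shmt2, named after its values were seen, gave 2066 ± 10.1 and lay above it on all 3 arrays, as did the cytosolic Shmt1. For the fatty aldehyde enzyme Aldh3a2, 4 of 5 genes lay above the line, with the peroxisomal genes Phyh at 2482 ± 271 and Hacl1 at 497 ± 73.8, the alcohol-forming reductase gene Far1 at 69.1 ± 19.3 and Fa2h at 38.6 ± 8.68.

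For the retinal dehydrogenases, 13 of 21 measured genes of retinoid handling lay above the line, close to the background share. Stra6, the receptor for retinol-binding protein, gave 827, 1216 and 830 (958 ± 224), and the retinal reductase genes Dhrs4 and Dhrs3 gave 1682 ± 69.5 and 465 ± 95.6. Lrat, which esterifies retinol for storage, gave 2.23 ± 0.895. Stra6 was highest on array 2. Aldh1a1 was lowest there with array medians centred, as were 62.4% of the 5172 named genes above the 75th percentile. With quantile normalization Aldh1a1 was lowest on array 1, with a range of 0.042. Among genes that make or reduce aldehydes, 11 of 15 lay above the line, including Akr1a1 (10429.9 ± 520.2), an aldehyde reductase, the catalase gene Cat (7420 ± 351) and Akr7a2 (5483 ± 420), against Cbr3 at 1.13 ± 0.461. Of the amine oxidation genes, whose products include aldehydes, 5 of 9 lay above the line, with Sat1 at 1989 ± 68.4, Abat at 685 ± 37.9, Maoa at 306 ± 34.7 and Aoc1 at 8.58 ± 2.49.

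**Figure D4:**
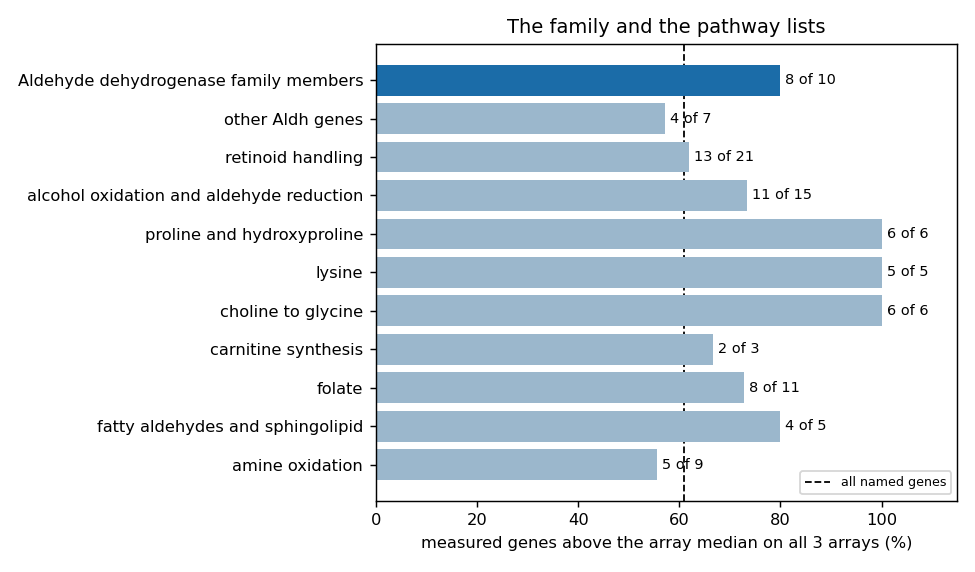
Share of measured genes above the array median on all 3 arrays, in percent, for the 10 aldehyde dehydrogenase genes (dark bar) and 10 lists of related genes (light bars), with counts beside the bars and the share of all named genes (61.0%) as a dashed line. The proline, lysine and choline lists reach their full count, and the retinoid list lies near the dashed line. All lists were chosen with earlier results of these data known.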

How the data were processed

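Per the labels, biotin-labelled cRNA of 3 proximal tubule preparations was hybridised to Affymetrix rat arrays. The authors deposited 1 linear signal intensity per probe set and array. The summarisation software and any scaling between arrays are not given in the sources used here. For beta-actin, the 3′ control probe set gave 3.85, 3.28 and 3.66 times the 5′ signal on arrays 1, 2 and 3. For GAPDH the ratio was 1.52, 1.52 and 1.40. Whether this bears on the low signals was not tested. Symbols came from the platform annotation provided with the values. Of 31042 probe sets other than controls, 20826 were annotated to 1 gene, 9780 are unnamed here, and the 436 annotated to several genes were not used. Genes with several probe sets took the one of highest mean signal. Array lines were quantiles over probe sets other than controls. Array differences used log2(signal + 16) centred on array medians, and 1 log2 unit counted as 2-fold. On simulated arrays of 14217 genes, the count of 2-fold ranges recovered 200 of 200 genes changed 3-fold and 0 unchanged genes. It recovered 2 of 200 genes changed 1.5-fold. The simulated noise was set below the median SD over arrays of all named genes (0.18). The recovery and the 0 unchanged genes hold for that setting only. The changed genes were drawn only from those with signals well above the median, and the simulated noise was equal at all levels. The simulation therefore says nothing on recovery among low signals. No test between groups was possible with 1 group. The text names all members, all other Aldh genes, and the 3 highest and the 1 lowest gene of each pathway list, plus cell markers; genes outside this rule are identified as such. The members and lists were chosen with earlier results of these data known. No search over all genes for a like pattern was made, since 3 arrays give no measure of likeness. The array orders of the cell marker lists were set beside those of Aldh1a2 and Aldh1a3 as a description only. Python 3.11.15, numpy 2.4.6 and pandas 2.3.3 were used.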

Additional observations from a re-analysis of the deposited data

How the results depend on the processing

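Of 10 members, 8 lay above the median line, beside 61.0% of all named genes. The count was 8 with a line at the 25th percentile and 7 at the 75th, beside 36.4% of all named genes at the 75th. No such share was counted for the 25th percentile. The count was 8 without each array in turn. The median percentile of 95.7 was 96.5 with probe sets averaged per gene and 95.6 to 95.9 without 1 array. Without the lowest 20% of genes only 8 members were left. At the 75th percentile the counts were 2 of 7 for other Aldh genes and 8 of 21 for retinoid handling. For fatty aldehydes the count was 2 of 5. The share of all named genes above that line on all 3 arrays was 36.4%. The count of 0 members, and of 0 member probe sets, with a 2-fold range became 2 with a pseudocount of 1 (23.0% of all named genes there) and was 0 under the other settings run. The median SD of 0.16 was 0.11 with a pseudocount of 64, and from 0.060 (without array 2) to 0.16 without 1 array. The settings for arrays 2 and 3 were chosen after seeing the data. The count of 7 lowest on array 2 was 7 without centring, 6 with 75th percentiles centred and 4 with quantile normalization. Among the 9156 named genes above the overall median signal the share was 52.1%, and 42.8%, 34.4% and 30.8% under those settings. The median deviation of the members on array 2, -0.15, was -0.042 with quantile normalization and -0.084 with 75th percentiles centred. The cause was not tested. No paired analysis was possible because the samples form 1 group. With 3 arrays, the precision of each mean is low.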

Other observations

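Outside the naming rule, 3 genes of the pathway lists ranged by 2-fold or more over the arrays and were chosen after their values were seen. They were 2 of 21 retinoid handling genes and 1 of 11 folate genes, with 0 in each other pathway list. The share over all named genes was 4.46%. Cyp26b1, which breaks down the retinoic acid that Aldh1a1 makes, gave 8.43, 25.1 and 52.6 on arrays 1, 2 and 3. Rbp4, the carrier of retinol in plasma, gave 40.3, 108 and 72.0. Ftcd, a folate enzyme of histidine breakdown, gave 20.6, 80.5 and 109. In each of these 3 genes, picked by their range, array 1 was the lowest, which was not tested. Also chosen after their values were seen, Rara, Rarb, Rxra, Rxrb and Rxrg, receptors for retinoids, exceeded the median signal of every array, and Rarg that of none.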
